A study of Mus musculus with 8 samples.

Results

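Hearts of Piezo1-Cko mice and of wild-type (WT) mice, both after sham surgery, were compared across every gene that reached 0.5 FPKM in at least 2 of the 8 libraries of the study. FPKM is fragments per kilobase of gene, scaled by a size set for each library. By that rule 14817 of the 54532 listed genes belonged to the comparison. Of these, 889 did not also have 10 reads in the same libraries, and the other 13928 were tested. The comparison rests on 4 libraries of heart tissue from C57BL/6 mice, WT sham replicates 1 and 2 and Cko sham replicates 1 and 2. Their reads in genes totalled 16038971, 15574769, 16865275 and 16202258, in that order. The other 4 libraries came from the same genotypes after TAC, the usual abbreviation of transverse aortic constriction, which narrows the aorta and loads the left ventricle with pressure. The labels give no Cre driver, no deleted exons, no cells in which the Cko allele acts and no age. Nothing in them ties a library to an animal of its own. What p-values measure is therefore only how far these samples spread, and that spread may be technical.

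Piezo1 is a large cation channel that opens when the cell membrane is stretched and lets calcium into the cell. It is known from endothelial cells, where it senses blood flow and shapes vessel growth, and from cardiomyocytes and fibroblasts of the heart, where calcium entering through such channels can act on calcineurin, CaMKII and other calcium-dependent enzymes. In a sham operation the aorta is not narrowed, so the comparison asks how the hearts of the genotypes differed without the pressure load.

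Piezo1 itself was at 2.35 and 3.09 FPKM in WT sham and at 3.83 and 3.23 FPKM in Cko sham. Both Cko sham libraries thus lay above both WT sham libraries, by a log2 difference of 0.33 (SE 0.19, adjusted p = 0.774). The WT TAC libraries were at 5.38 and 5.83 FPKM and the Cko TAC libraries at 5.24 and 3.89 FPKM. The value sums all exons, in heart tissue, and the labels do not say which exons or cells the Cko allele affects. The gene also overlaps Ctu2 and Gm20388 on the opposite strand and Gm26497 on its own. The total of Piezo1 therefore does not check the genotype labels.

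Esr1, which encodes estrogen receptor alpha, separated the libraries in another way. It was at 144.3 FPKM in WT sham replicate 1 and at 0.103 FPKM in WT sham replicate 2, against 144.1 and 178.7 FPKM in Cko sham. In reads this was 28021 and 20 against 30154 and 37363. After TAC it was at 0.307 and 0.394 FPKM in WT and at 44.4 and 70.0 FPKM in Cko. The library labelled WT sham replicate 1 thus lay with the Cko libraries and apart from the other 3 WT libraries. Esr1 was singled out after its values were seen. With all libraries its log2 difference under sham was 4.11 (adjusted p = 0.745), the highest of the genes tested, and without WT sham replicate 1 it was 8.06 (adjusted p = 0.000277). As background, some inducible Cre recombinases are fused to a part of the estrogen receptor. Neither a transgene nor a mix-up of labels was tested. For Gapdh and Aplnr, described below, WT sham replicate 1 lay with WT sham replicate 2 and apart from Cko sham. Both were picked for differing between the groups as labelled, so they do not check the label.

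The same library also held transcripts of atrial muscle. Myl7, the atrial regulatory myosin light chain, was at 394.4 FPKM in WT sham replicate 1, at 0 in WT sham replicate 2 and at 0.443 and 0 FPKM in Cko sham. Sln, the atrial inhibitor of the calcium pump, was at 43.6 FPKM there and at 0 in the other 3 sham libraries. Myl4, the atrial essential light chain, was at 40.4 FPKM there and at 0.549 to 0.623 FPKM in the others. Nppa, the natriuretic peptide gene, did not follow, at 111.7 and 115.9 FPKM in WT sham and 97.9 and 102.2 FPKM in Cko sham, and Bmp10 was at 0 in all 4. The 18 atrial markers summed to 771.5 FPKM in WT sham replicate 1 and to between 185.1 and 215.6 FPKM in the other 3. The 10 ventricular markers, among them Myl2 and Myl3, summed to 16297 to 18547 FPKM, so the defining markers of heart muscle were present in all 4 libraries.

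Other marker sums moved with WT sham replicate 1 as well. Its 12 fibroblast markers summed to 1796 FPKM against 1151 to 1269 FPKM in the other sham libraries, and its 11 neutrophil markers to 50.6 FPKM against 7.24 to 9.98 FPKM. Its 13 endothelial markers summed to 538.2 FPKM, below the 794.8 FPKM of WT sham replicate 2 and the 982.3 and 1046 FPKM of Cko sham. In bulk tissue, fewer cells of a type and less RNA per cell cannot be told apart. In WT sham replicate 1, 18 genes lay at least 4-fold above all of the other 3 sham libraries, on the FPKM + 0.5 scale. The number was 1, 0 and 1 in WT sham replicate 2 and Cko sham replicates 1 and 2. Ddx3y was read in all 8 libraries and Xist was at most 0.0196 FPKM.

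**Figure D1:**
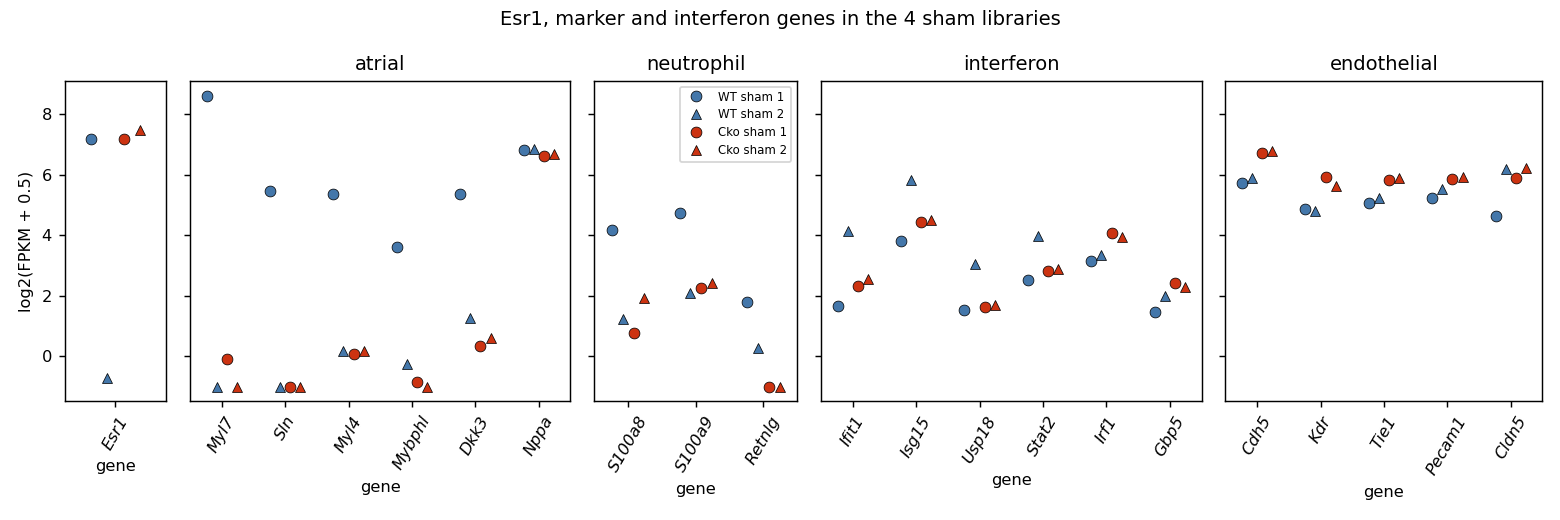
Levels as log2(FPKM + 0.5), on the vertical axis, of Esr1 and of atrial, neutrophil, interferon-stimulated and endothelial genes, on the horizontal axis, in WT sham (blue) and Cko sham (red), with circles for replicate 1 and triangles for replicate 2. WT sham replicate 1 stands with Cko sham for Esr1, above the rest for Myl7, Sln and Myl4, and WT sham replicate 2 stands above the rest for Ifit1 and Isg15.

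Of the 13928 genes tested, 3 passed an adjusted p of 0.05 between Cko sham and WT sham, which is 0.0215% of them. Aplnr and the pseudogene Gm49326 rose in Cko sham and Gapdh fell. At an unadjusted p under 0.05 there were 644 genes with a positive difference (4.62%) and 425 with a negative one (3.05%). Both Cko sham libraries lay above both WT sham libraries for 2692 genes (19.3%) and below both for 2821 genes (20.3%). The median log2 difference over all tested genes was -0.01. Without WT sham replicate 1 the genes that passed were Gapdh, Gm49326, Depp1 and Esr1, and without WT sham replicate 2 they were Gapdh and Myl4. There were 42 lists of cell type markers and pathway genes, not all described here, and Aplnr and Gapdh were their only genes that passed. Members of a list are therefore given by their values and counts and read against those shares.

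**Figure D2:**
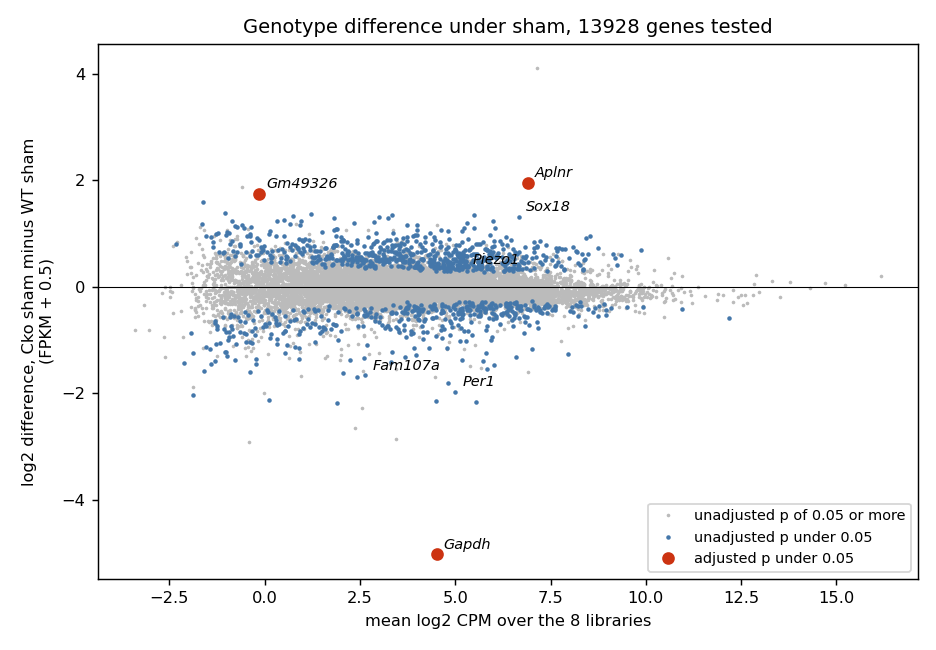
Log2 difference of Cko sham minus WT sham on the FPKM + 0.5 scale (vertical axis) against mean log2 CPM (reads scaled to library size) over the 8 libraries (horizontal axis), 1 point per gene. The 3 genes that passed are in red, those with an unadjusted p under 0.05 in blue, and Esr1 is the grey point at 4.11.

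Gapdh, the glycolytic enzyme glyceraldehyde-3-phosphate dehydrogenase (chr6:125161715-125166467, minus strand, GRCm38), was at 81.1 and 122.2 FPKM in WT sham and at 2.31 and 2.84 FPKM in Cko sham. The means were 101.7 ± 29.0 and 2.58 ± 0.381 FPKM (SD, n = 2 each), from 4766 and 7166 reads against 146 and 180. It fell by 5.03 on the log2 scale, a 32.7-fold difference (SE 0.20, adjusted p = 0.000227). The 4 libraries after TAC were at 1.55 to 2.32 FPKM, beside Cko sham. A level of 1.55 to 2.84 FPKM in 6 heart libraries is low for a gene that nearly all cells express strongly, and whether Gapdh was counted alike in all libraries was not tested. The genotype difference after TAC was 0.37 (adjusted p = 0.616). The difference between the surgeries in that genotype difference was 5.40 (SE 0.29, adjusted p = 0.00176), and Gapdh was the 1 gene that passed this test (0.00718% of those tested).

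Enzymes next to it in glycolysis did not share its pattern. Tpi1, which makes its substrate, was at 250.3 and 322.9 FPKM in WT sham and 253.0 and 249.8 FPKM in Cko sham. Pgk1, which uses its product, was at 136.2 and 139.5 against 151.0 and 132.9 FPKM. Aldoa, Eno3 and Pkm had log2 differences between -0.12 and 0.09. Over the 28 tested genes of glycolysis and pyruvate handling the median log2 difference was -0.10, and it was -0.19 without WT sham replicate 1 and -0.03 without WT sham replicate 2. The listed length of Gapdh was 4133 bases, and it overlaps Iffo1 on the opposite strand. Its 7 annotated copies of at least 90% identity held 2 and 5 reads together in WT sham and 4 and 3 in Cko sham. Gapdh passed under all 20 alternative settings, with adjusted p between 2.64e-05 and 0.0139.

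**Figure D3:**
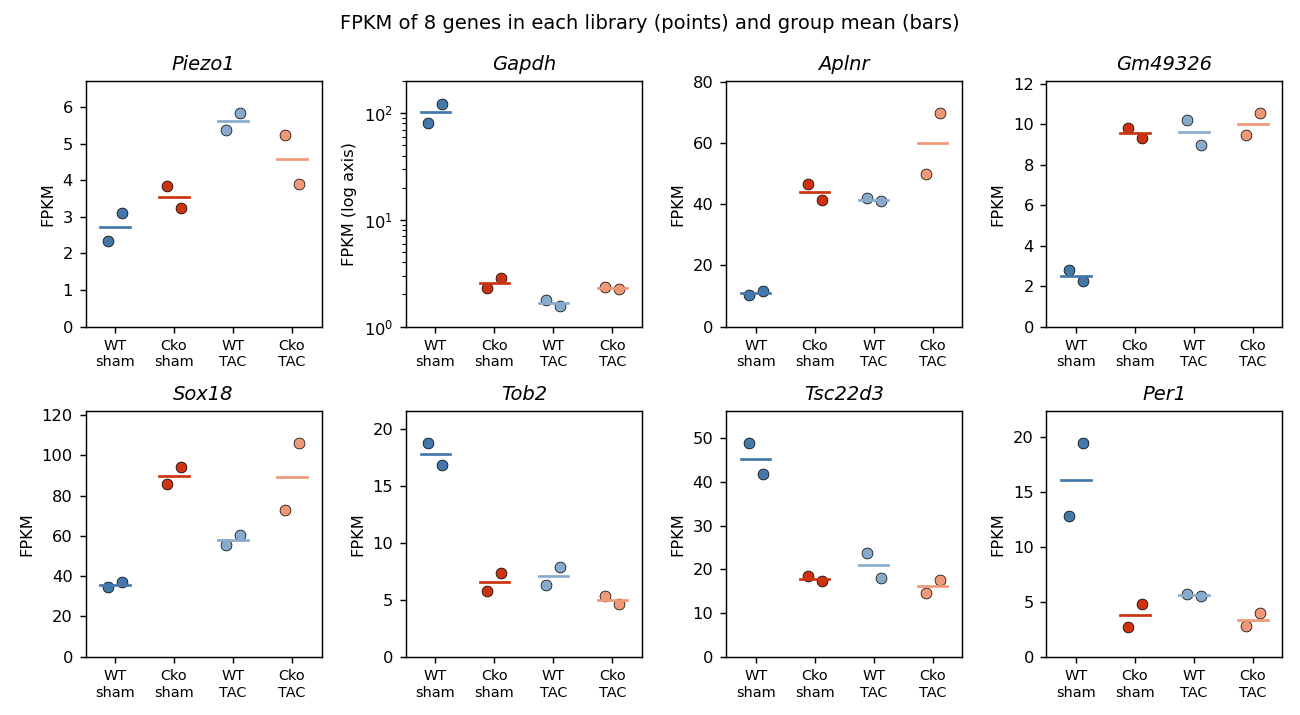
FPKM (vertical axes, a log axis for Gapdh) of Piezo1, the 3 genes that passed and 4 genes of small p that did not, in the 4 groups (horizontal axes), with points for libraries and bars for group means of 2. For Gapdh, Aplnr, Gm49326, Tob2, Tsc22d3 and Per1 the WT sham libraries stand apart from the libraries of the other 3 groups.

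Aplnr encodes the apelin receptor, a G protein-coupled receptor of endothelial cells that acts in vessel growth and in the response of the heart to load (chr2:85136225-85139923, plus strand). It was at 10.4 and 11.55 FPKM in WT sham and at 46.8 and 41.3 FPKM in Cko sham, or 10.98 ± 0.795 against 44.1 ± 3.86 FPKM (SD, n = 2 each). It rose 3.88-fold, a log2 difference of 1.95 (SE 0.17, 95% interval 1.55 to 2.36, adjusted p = 0.0240). The WT TAC libraries, at 41.98 and 41.1 FPKM, lay at the level of Cko sham, and the Cko TAC libraries were at 50.1 and 69.9 FPKM. The genotype difference after TAC was 0.51 (adjusted p = 0.518), and the difference between the surgeries was not past the threshold (adjusted p = 0.845). Its ligand Apln was at 4.18 and 8.50 FPKM in WT sham and 7.28 and 7.55 FPKM in Cko sham. Aplnr passed under 11 of 20 alternatives. The adjusted p was 0.128 without WT sham replicate 1 and 0.123 without WT sham replicate 2, with log2 differences of 1.88 and 2.03.

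All 13 endothelial markers had positive differences, with a median of 0.55 and a range of 0.25 to 1.95. Of these, 8 had an unadjusted p under 0.05, against 4.62% of all tested genes in that direction. In 11 both Cko sham libraries lay above both WT sham libraries, against 19.3% of all tested genes. Cdh5, the adhesion protein of endothelial junctions, was at 52.9 and 59.2 FPKM in WT sham and 105.3 and 111.5 FPKM in Cko sham. Kdr, the main receptor of vascular endothelial growth factor (VEGF), was at 29.0 and 27.8 against 59.98 and 48.8 FPKM. Tie1, a receptor kinase of endothelium, was at 33.0 and 37.5 against 56.3 and 59.3 FPKM, and Pecam1 at 37.2 and 45.6 against 58.1 and 60.5 FPKM. Cldn5, a tight junction protein, overlapped between the groups, at 24.7 and 72.5 against 58.7 and 73.8 FPKM. None of the list but Aplnr passed.

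The sum of the endothelial markers was lower in WT sham replicate 1 than in WT sham replicate 2, so the list was read without either. Its median was 0.37 without replicate 1, with 3 members at an unadjusted p under 0.05, and 0.81 without replicate 2, with 9. After TAC, in libraries that the sham comparison does not contain, the median was 0.27. Sox18, a transcription factor of endothelial differentiation that belongs to none of the lists, was among the genes of smallest p that did not pass. It was at 34.4 and 37.3 FPKM in WT sham and 85.7 and 94.2 FPKM in Cko sham, a log2 difference of 1.31 (SE 0.18, adjusted p = 0.157).

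The 21 tested ligands and receptors of vessel growth had a median of 0.41, with 10 at an unadjusted p under 0.05, all positive. Over all tested genes that share was 4.62%. Of the receptors and markers, 5 are shared with the endothelial list. The median was 0.35 without WT sham replicate 1, with 5 at such a p, and 0.57 without WT sham replicate 2, with 8. Nrp2, a VEGF co-receptor, was at 4.91 and 4.76 FPKM in WT sham and 8.25 and 7.49 FPKM in Cko sham. Dll4, the Notch ligand of sprouting vessels, was at 7.49 and 11.97 against 18.05 and 15.9 FPKM. Vegfa and Vegfb, ligands made largely by muscle, had log2 differences of -0.10 and -0.08. Markers of smooth muscle and pericytes, the cells around vessels, had a median of 0.03 over 12 genes. It was -0.20 without WT sham replicate 1 and 0.60 without WT sham replicate 2.

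Gm49326, the third gene that passed, is an unprocessed pseudogene of 126 bases (chr12:17882197-17882322, plus strand) and lies outside the rule for named genes. It had 5 and 4 reads in WT sham, 19 and 18 in Cko sham and 20 to 24 in the libraries after TAC. Its log2 difference was 1.75 (SE 0.14, adjusted p = 0.0215). There were 47 other annotated genes with at least 90% identity over at least 50% of it, so how reads were split between the copies bears on its value, and it is uncertain. It passed under 10 of 20 alternatives.

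Among the genes of smallest p that did not pass, those lower in Cko sham included targets of the glucocorticoid receptor, which adrenal steroids activate in stress and over the day. Tsc22d3, the leucine zipper protein GILZ, was at 48.8 and 41.7 FPKM in WT sham and 18.4 and 17.4 FPKM in Cko sham, a log2 difference of -1.31 (SE 0.17, adjusted p = 0.137). Fam107a, an actin-associated protein, was at 4.25 and 3.48 against 0.759 and 0.996 FPKM (log2 difference -1.66, adjusted p = 0.117). The groups did not overlap for either gene, nor for 39.6% of all tested genes. After TAC the log2 differences of Tsc22d3 and Fam107a were -0.36 and -0.50.

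The glucocorticoid list held 18 tested genes with a median of -0.85. Of these, 11 had an unadjusted p under 0.05, all negative, against 3.05% of all tested genes in that direction. In 14 both Cko sham libraries lay below both WT sham libraries, against 20.3% of all tested genes, and in 0 above. Cebpb and Cebpd, transcription factors of acute responses, were at 45.7 and 44.7 against 14.1 and 21.1 FPKM and at 16.0 and 13.2 against 6.74 and 7.10 FPKM. Cdkn1a, the cell cycle inhibitor p21, was at 32.1 and 16.9 against 10.5 and 8.64 FPKM. Pdk4, the kinase that shuts pyruvate out of the citric acid cycle, was at 71.1 and 152.2 against 34.0 and 54.9 FPKM. Klf9 and the metallothionein Mt1 overlapped between the groups. The median was -0.92 without WT sham replicate 1, with 9 negative at such a p, and -0.67 without WT sham replicate 2, with 7, and no member passed.

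Genes of the immediate early response, which cells switch on within minutes of a stimulus, had a median of -0.57 over 25 genes. There were 9 with a negative and 1 with a positive difference at an unadjusted p under 0.05, against 3.05% and 4.62% of all tested genes. Klf2, which endothelial cells express under flow, was at 86.3 and 108.1 FPKM in WT sham and 58.8 and 47.0 FPKM in Cko sham. Atf3, a stress-induced transcription factor, was at 7.51 and 13.1 against 4.06 and 3.34 FPKM. The orphan nuclear receptor Nr4a1 was at 11.53 and 21.3 against 6.23 and 1.49 FPKM. Fosl1, a Fos-related factor, went the other way, at 1.44 and 1.24 against 3.14 and 2.53 FPKM. Fos itself was at 3.53 and 3.87 against 1.86 and 0.333 FPKM. The median was -0.77 without WT sham replicate 1, with 10 negative at such a p, and -0.49 without WT sham replicate 2, with 4. None passed, and Dusp1 belongs to this list and to the one before.

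Inducible chaperones were the members of the heat shock list with the largest differences. Hspa1a was at 2.63 and 5.91 FPKM in WT sham and 1.01 and 0.903 FPKM in Cko sham, and its neighbour Hspa1b, a near-identical gene whose reads can be confused with it, at 2.84 and 7.37 against 1.35 and 0.862 FPKM. The constitutive chaperones Hspa8 and Hsp90ab1 had log2 differences of -0.08 and -0.01. The list's median over 24 genes was -0.18, with 5 negative differences at an unadjusted p under 0.05, against 3.05% of all tested genes. It was -0.29 without WT sham replicate 1 and -0.09 without WT sham replicate 2.

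Tob2, an antiproliferative protein that binds the deadenylation machinery, was at 18.8 and 16.9 FPKM in WT sham and 5.75 and 7.34 FPKM in Cko sham (log2 difference -1.39, adjusted p = 0.123). Ndrg4, a cytoplasmic protein of heart and brain, was at 40.2 and 36.5 against 16.7 and 16.7 FPKM (log2 difference -1.17, adjusted p = 0.157). On the positive side, the kinesin Kif26a was at 3.60 and 3.60 against 7.01 and 7.22 FPKM and the natural killer receptor gene Klra9 at 2.15 and 1.65 against 5.92 and 4.80 FPKM. Klra9 belongs to a family of near-identical neighbours, which makes its value uncertain. These 4 genes were named by small p, and their adjusted p lay between 0.123 and 0.157. The groups did not overlap for them, nor for 39.6% of all tested genes.

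**Figure D4:**
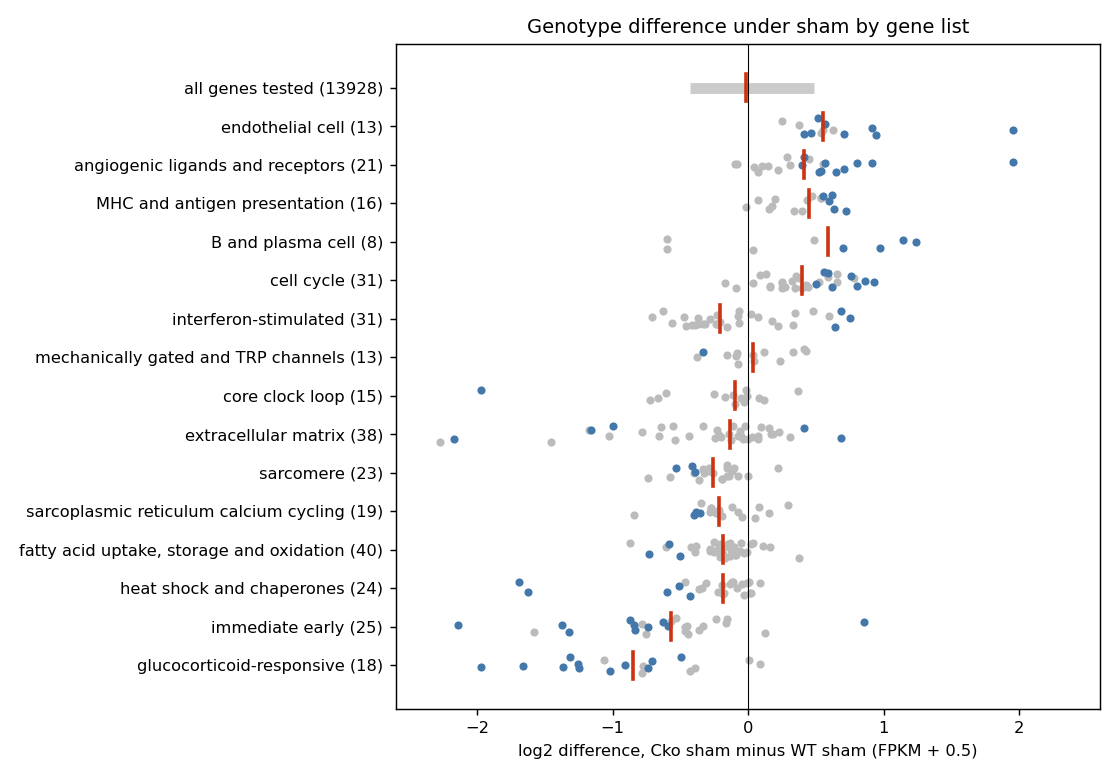
Log2 difference of Cko sham minus WT sham (horizontal axis, FPKM + 0.5) for the tested members of 15 gene lists (vertical axis, number tested in brackets), blue at an unadjusted p under 0.05, with medians as red bars. The grey band spans the 5th to 95th percentile of all tested genes. The endothelial median is at 0.55 and the glucocorticoid median at -0.85.

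The circadian clock of the heart is a loop in which Arntl and Clock or Npas2 switch on Per, Cry, Nr1d1 and Dbp through E-boxes, with the letters CACGTG, and the Per, Cry and Nr1d1 proteins switch the loop off. Dbp and its relatives act on D-boxes. The upstream sequences below are of 4 clock genes whose levels are given next and whose windows hold such letters, with the motif in capitals, read 5′ to 3′ on the strand of the gene from RefSeq (GRCm38.p6). The windows ran from 250 bases before to 50 after each start. Both strands were searched.
Per1, E-box, chr11:69098768-69098803: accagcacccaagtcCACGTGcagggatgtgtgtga
Ciart, E-box, chr3:95882324-95882359: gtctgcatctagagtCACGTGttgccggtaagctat
Cry1, E-box, chr10:85185094-85185129: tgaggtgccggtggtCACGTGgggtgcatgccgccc
Per3, D-box, chr4:151044801-151044838: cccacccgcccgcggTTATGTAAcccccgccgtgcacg

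A gene can have several windows. The E-box letters were in 7.15% of all 32851 windows. Counted by gene, they were in a window of 11.6% of the 10124 tested genes that had one, and of 4 of 12 core clock genes, Per1, Cry1, Ciart and Bhlhe41. The D-box letters TTATGTAA were in 0.938% of windows and in 0.652% of those genes, and the window of Per3 held them at 2 positions. A match describes the letters only.

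Most clock genes separated the sham libraries by replicate number and not by genotype. Arntl was at 3.96 and 0.796 FPKM in WT sham and 3.89 and 1.04 FPKM in Cko sham. Per2, a repressor of the loop, was at 1.17 and 8.12 against 1.07 and 3.45 FPKM. Per3, with the D-box printed above, was at 0.827 and 4.55 against 1.13 and 3.32 FPKM. Dbp, an output factor of the clock, was at 3.22 and 28.8 against 1.94 and 51.1 FPKM, and Ciart, a repressor with the E-box printed above, at 0.529 and 5.39 against 0.231 and 2.54 FPKM. In each of these 5 genes both libraries of replicate 1 lay on one side of both libraries of replicate 2. That held for 20 of the 29 tested clock genes, 14 higher in replicate 2 and 6 higher in replicate 1. Over all tested genes the shares were 15.7% and 13.0%.

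Per1 was different. It was at 12.8 and 19.5 FPKM in WT sham and at 2.74 and 4.85 FPKM in Cko sham, with all 4 libraries ordered by genotype, a log2 difference of -1.97 (SE 0.29, adjusted p = 0.180). After TAC it was at 5.68 and 5.56 FPKM in WT and 2.78 and 3.98 FPKM in Cko. Cry1, whose window holds an E-box as well, was at 3.201 and 3.71 against 6.78 and 3.05 FPKM and followed neither order. Per1 stands in the glucocorticoid list as well as in the clock list. A clock index was taken for each library, the mean log2 level of Per1, Per2, Per3, Nr1d1 and Dbp minus that of Arntl and Npas2. With it as a covariate the log2 difference of Per1 was -1.89 (adjusted p = 0.119). Per1 is part of the index, so this value cannot separate its difference from the clock. With the replicate block on the 4 sham libraries alone, an alternative chosen after seeing the data, the adjusted p of Per1 was 0.0317. The core clock list had a median of -0.10 over 15 genes, and 0 genes were past the threshold in the fit over 8 libraries. The median was -0.41 without WT sham replicate 1 and 0.16 without WT sham replicate 2.

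**Figure D5:**
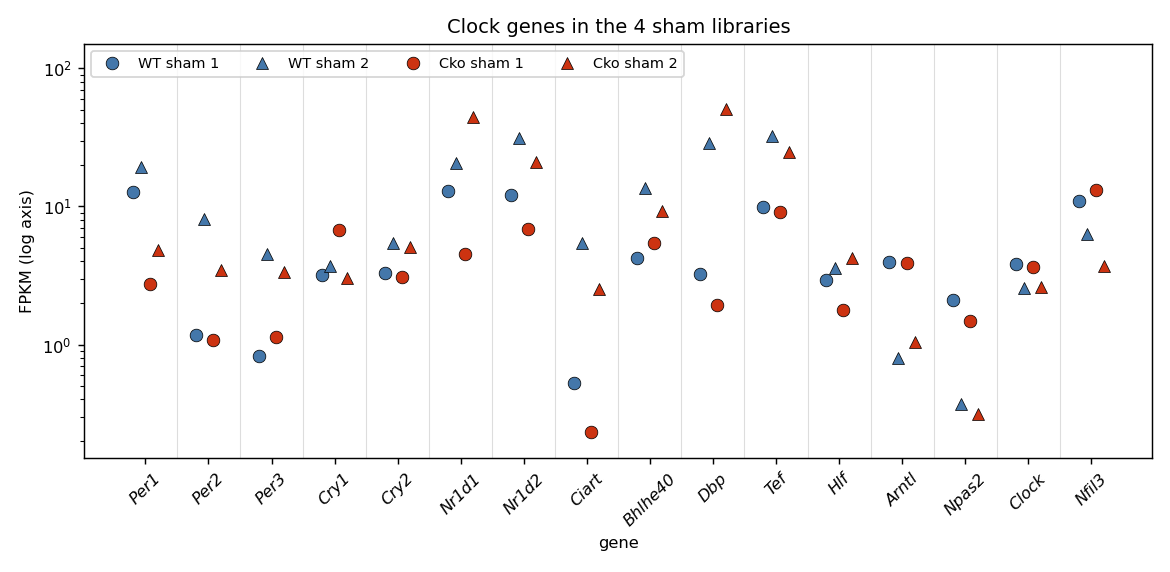
FPKM on a log axis (vertical) of 16 clock genes (horizontal) in the 4 sham libraries, WT in blue and Cko in red, with circles for replicate 1 and triangles for replicate 2. Circles and triangles separate for Per2, Per3, Ciart, Dbp, Arntl and Npas2, and blue separates from red for Per1.

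Genes of antigen presentation through class I of the major histocompatibility complex (MHC) had positive differences. H2-K1, a class I heavy chain, was at 132.9 and 142.2 FPKM in WT sham and 236.7 and 218.5 FPKM in Cko sham, and B2m, the light chain, at 577.4 and 644.3 against 948.7 and 892.9 FPKM. Irf1, the transcription factor that acts on both, was at 8.42 and 9.80 against 16.3 and 15.02 FPKM. H2-K1 and H2-D1 are closely related genes between which reads can be confused. In 13 of the 16 tested genes of the MHC list both Cko sham libraries were the higher ones, against 19.3% of all tested genes. The list had a median of 0.45, with 5 at an unadjusted p under 0.05, all positive, against 4.62% of all tested genes. The median was 0.25 without WT sham replicate 1, with 3 at such a p, and 0.61 without WT sham replicate 2, with 6, and after TAC it was 0.29. No member passed, and the adjusted p of H2-K1 was 0.294.

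The interferon-stimulated genes followed single libraries. Ifit3, an antiviral protein, was at 5.44 and 37.4 FPKM in WT sham and 10.4 and 12.7 FPKM in Cko sham, and Isg15, the ubiquitin-like modifier, at 13.5 and 55.8 against 21.5 and 22.1 FPKM. Of the 31 tested, 29 were lowest in WT sham replicate 1 and 24 were highest in WT sham replicate 2. The other 7 were highest in a Cko sham library, and 2 were lowest in Cko sham replicate 2. The median of the list was -0.21 with all libraries. It was -0.74 without WT sham replicate 1 and 0.65 without WT sham replicate 2, so its sign turned on which WT sham library was kept.

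Cell cycle genes were at low levels. Ccnd1, a cyclin of the first gap phase, was at 7.99 and 7.30 FPKM in WT sham and 14.7 and 13.8 FPKM in Cko sham. Mcm3, a subunit of the replicative helicase, was at 2.19 and 2.03 against 3.88 and 3.17 FPKM, and the proliferation marker Mki67 at 0.503 and 0.574 against 0.960 and 0.980 FPKM. In 24 of the 31 tested, both Cko sham libraries were the higher ones, and in 0 both were the lower ones. Over all tested genes these shares were 19.3% and 20.3%. The median of the list was 0.40, with 8 at an unadjusted p under 0.05, all positive, against 4.62% of all tested genes. There were 4 at such a p without WT sham replicate 1, where the median was 0.49, and 2 without WT sham replicate 2, where it was 0.40. After TAC the median was -0.12. Adjusted p values were 0.442 and above.

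Genes of the heart muscle cell had small and mostly negative differences. The sarcomere list had a median of -0.26 over 23 genes. Of these, 3 had an unadjusted p under 0.05, all negative, against 3.05% of all tested genes in that direction. The median was -0.31 without WT sham replicate 1 and -0.12 without WT sham replicate 2. Ttn, the elastic filament titin, was at 22.8 and 19.7 FPKM in WT sham and 15.04 and 16.6 FPKM in Cko sham. Myh6, the adult heavy chain, was at 2618 and 2264 against 2012 and 2262 FPKM, and Myh7, the fetal one, at 24.6 and 24.9 against 15.6 and 13.7 FPKM (adjusted p = 0.876). The hypertrophy and fetal programme list had a median of -0.26 over 18 genes and no member at an unadjusted p under 0.05. Its median was -0.35 without WT sham replicate 1 and -0.15 without WT sham replicate 2. Nppb, the brain natriuretic peptide gene, was at 219.2 and 427.8 against 629.6 and 347.7 FPKM.

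Calcium handling was read for what Piezo1 is known to feed into. The 19 genes of calcium cycling in the sarcoplasmic reticulum had a median of -0.22. Cacna1c, the L-type calcium channel, was at 8.91 and 9.31 FPKM in WT sham and 7.16 and 6.39 FPKM in Cko sham, and Atp2a2, the calcium pump of the reticulum, at 1467 and 1335 against 1118 and 1077 FPKM. Among the 28 genes of calcineurin, NFAT, CaMKII, HDAC, MEF2 and calpain the median was -0.09. Rcan2, a regulator of calcineurin, was at 75.5 and 78.7 against 60.4 and 60.9 FPKM. Hdac7, a deacetylase of class IIa, was at 10.4 and 12.2 against 16.2 and 16.3 FPKM, and Ppp3ca, the catalytic subunit of calcineurin, at 9.90 and 10.6 against 7.93 and 8.40 FPKM. These 5 genes were named by small p or after their values were seen. The groups did not overlap for them, nor for 39.6% of all tested genes. None of the 5 passed, with adjusted p of 0.530 and above.

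Other mechanically gated and TRP channels are of interest where 1 such channel is targeted. Of 24 genes in the list 13 were tested, with a median of 0.03, which was -0.10 without WT sham replicate 1 and 0.10 without WT sham replicate 2. Trpm4, a calcium-activated cation channel, was at 2.83 and 3.76 FPKM in WT sham and 3.17 and 2.96 FPKM in Cko sham. Trpv4, a channel opened by osmotic and mechanical stimuli, was at 2.23 and 3.22 against 2.64 and 3.30 FPKM. The groups overlapped for both genes. Tmem63b, a stretch-activated channel, was at 19.2 and 20.8 against 15.7 and 15.7 FPKM (log2 difference -0.34, adjusted p = 0.551). Piezo2 was below the filter, at 0.0774 to 0.352 FPKM.

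Among potassium channels, Kcna5 was at 23.6 and 25.3 FPKM in WT sham and 15.3 and 15.4 FPKM in Cko sham, and Kcnk3, a background channel, at 84.7 and 73.6 against 60.1 and 59.1 FPKM. The list of potassium, sodium and pacemaker channels had a median of -0.22 over 23 genes. It was -0.09 without WT sham replicate 1 and -0.28 without WT sham replicate 2. In fat metabolism, Slc27a1, a fatty acid transport protein, was at 28.8 and 28.4 against 20.2 and 19.9 FPKM, and Ppargc1a, the coactivator of mitochondrial growth, at 10.8 and 14.2 against 6.69 and 7.87 FPKM. The 40 genes of fatty acid use had a median of -0.19. The 41 nuclear genes of the respiratory chain and citric acid cycle had a median of -0.09 (-0.06 without WT sham replicate 2) and 0 members at an unadjusted p under 0.05. None of these genes passed.

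Matrix genes went in both directions. Col4a1, a collagen of basement membranes, was at 50.2 and 70.8 FPKM in WT sham and 87.3 and 105.7 FPKM in Cko sham. Thbs1, thrombospondin, was at 13.4 and 6.59 against 2.07 and 1.39 FPKM, and the protease Adamts1 at 11.4 and 16.8 against 7.25 and 6.14 FPKM. The extracellular matrix list had a median of -0.13 over 38 genes, with 2 positive and 3 negative differences at an unadjusted p under 0.05. Over all tested genes these shares were 4.62% and 3.05%. The median of the list was -0.07 without WT sham replicate 1 and -0.37 without WT sham replicate 2. Ctgf, a target of the mechanically regulated factors YAP and TAZ, was at 26.6 and 58.1 against 15.4 and 10.4 FPKM. The list that holds it, of targets of YAP and TAZ and of the transcription factor SRF, had a median of -0.16. That median was -0.19 without WT sham replicate 1 and 0.06 without WT sham replicate 2. Neither list had a member that passed.

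The genotype difference after TAC was measured in 4 other libraries, but both differences came from 1 fit with a pooled spread, so a gene of small spread has a small p in both. No gene passed there (0% of those tested), by limma on log2(FPKM + 0.5), while 1269 had an unadjusted p under 0.05. Of the 1069 genes with an unadjusted p under 0.05 under sham, 773 (72.3%) had the same sign after TAC, against 56.4% of all tested genes. There were 194 of the 1069 with an unadjusted p under 0.05 after TAC and the same sign, and 29 with the opposite sign. Across all tested genes the log2 differences under the 2 surgeries had a Pearson correlation of 0.237 and a Spearman correlation of 0.203, as a description over genes, which are not independent. The Cko libraries of both surgeries share the high Esr1 level and the WT TAC libraries lack it. Sox18, at 55.3 and 60.3 FPKM in WT TAC and 72.9 and 106.0 FPKM in Cko TAC, and Tsc22d3, at 23.8 and 18.1 against 14.6 and 17.6 FPKM, kept their signs in both comparisons.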

How the data were processed

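Per the labels' protocols, Trizol was used to isolate RNA and the NEBNext Ultra kit to build libraries. The submitters' processing notes list featureCounts 1.5.0-p3, Bowtie 0.12.2 and CASAVA 1.8, and as builds mm10 and mm8, without roles. The strand setting and the scaling method are not given in the sources used here. The authors deposited FPKM for 54532 genes in 8 libraries. Times the listed length, 100% of values were whole multiples of 1 step per library within 0.01 read, which returned the reads. The implied library size was 0.886 to 1.10 times the reads, so values were not scaled to total reads. Between libraries it was within 0.5% of median-of-ratios scaling, which uses the median over genes of reads relative to the gene's mean. Gene positions in the table matched GENCODE M21 (GRCm38) for 53499 of 54409 shared identifiers. Total reads were 15574769 to 17313084 per library, and mitochondrial genes took 17.6% to 24.4% of them.

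log2(FPKM + 0.5) was fitted with limma 3.58.1 in R 4.3.3, with 1 term per group over all 8 libraries (4 residual degrees of freedom), trend and robust moderation. Fold changes on this scale understate those of low genes. Genes needed 0.5 FPKM and 10 reads in the same 2 or more libraries. Adjusted p-values are two-sided, Benjamini-Hochberg over 13928 genes, with a threshold of 0.05. The fit was also run on simulated reads with known changes, drawn with the same spread setting for every gene and no library set apart. That run does not show how the fit performs on libraries such as these. The comparison, its gene lists and its tests were chosen with earlier results of these data known. Named are Piezo1, up to 12 passing genes per direction (mean log2 CPM of at least 1, no predicted genes or pseudogenes, no overlap between groups), filled up to 6 with those of smallest p, the 2 list members of smallest p, and atrial and clock markers. Further members were named, after their values were seen, to show how lists varied. Copies were found with minimap2. Alternatives covered scaling, the pseudocount, filters, limma-voom, the libraries fitted, a clock covariate and a replicate block. The chi-square per degree of freedom between libraries of a group was 18.1 to 46.8, far above counting noise.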

Additional observations from a re-analysis of the deposited data

Results flagged for a closer look

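The genotype difference of Gapdh differed between the surgeries by 5.40 on the log2 scale, by the interaction term of the limma fit (SE 0.29, adjusted p = 0.00176). Gapdh was at 81.1 and 122.2 FPKM in the 2 WT sham libraries and at 1.55 to 2.84 FPKM in the other 6.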

How the results depend on the processing

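The number of genes that passed was 3, with 2 higher and 1 lower in Cko sham. It was the same in total and by direction under trimmed-mean scaling, scaling to total reads, pseudocounts of 0.1 and 1 FPKM, no read minimum, a mean of at least 2 FPKM and an absolute log2 difference of at least 1. With no filter 1 gene passed, with 0 higher. With limma-voom on the recovered reads, and with the 4 sham libraries alone, 1 was higher and 2 were lower, where Tob2 (adjusted p = 0.0491) and Ccl21a (adjusted p = 0.0453) passed beside Aplnr and Gapdh. With the clock index as a covariate 1 was higher. Leaving out 1 library at a time gave 1 to 4 genes, 0 to 2 higher and 1 to 2 lower. Aplnr no longer passed without any 1 of the sham libraries or of the WT TAC libraries. Depp1 and Esr1 passed only without WT sham replicate 1 (adjusted p = 0.0434 and 0.000277), and Myl4 only without WT sham replicate 2 (adjusted p = 0.0325), among the settings run.

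Replicate numbers 1 and 2 recur in every group. The correlation of replicate differences was 0.0579 between WT sham and Cko sham and 0.0256 to 0.248 over all pairs of groups, and the labels give the number no meaning, so pairing was not established. The clock index, defined above with Per1, was 0.33 and -0.22 in the replicate 1 libraries of WT sham and Cko sham. It was 3.72 and 3.34 in the replicate 2 libraries of these groups. After TAC the index was 0.03 and 2.21 in WT replicates 1 and 2, and 3.43 and 3.74 in Cko replicates 1 and 2. The replicate number thus did not go with the index alike in all groups, and the replicate block is not an adjustment for the clock. With the replicate block 1 gene was higher and 1 lower, Gm49326 and Gapdh, and Aplnr had an adjusted p of 0.0525. With the replicate block on the 4 sham libraries alone, chosen after seeing the data, 7 passed, 5 of them lower (Gapdh, Per1, Thbs1, Cfd and Ccl21a). Values of low genes rest on few reads, such as the 4 to 24 reads of Gm49326.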

Other observations

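Genes of signalling between cells, not described above, also had differences that did not pass. Cxcl12, a chemokine of stromal and endothelial cells, was at 34.3 and 31.4 FPKM in WT sham and 50.8 and 50.1 FPKM in Cko sham, and Cxcl9, an interferon-gamma-induced chemokine, at 3.22 and 3.95 against 7.83 and 6.91 FPKM. Ccl21a, a chemokine of lymphatic endothelium with near-identical copies, was at 28.2 and 26.1 against 5.03 and 6.17 FPKM, and after TAC ran from 1.87 to 16.2 FPKM. The list of chemokines, cytokines and acute phase genes had a median of -0.17 over 26 genes. It was -0.21 without WT sham replicate 1 and -0.08 without WT sham replicate 2. Nos3, the endothelial nitric oxide synthase, was at 10.4 and 11.1 against 15.6 and 14.7 FPKM.

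Markers of B cells were at low levels. Ighm, the immunoglobulin mu chain, was at 5.56 and 5.27 FPKM in WT sham and 9.93 and 12.4 FPKM in Cko sham, and Cd79b at 0.688 and 0.591 against 1.37 and 1.32 FPKM. The plasma cell genes Jchain and Igkc overlapped between the groups and were highest in WT sham replicate 1. Macrophage markers summed to 463.4 and 500.7 FPKM in WT sham and 529.1 and 528.8 FPKM in Cko sham.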
